A study of Mus musculus with 32 samples.

Results

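The genes examined were 10 marker genes of adipocytes, found by matching gene symbols to the Ensembl identifiers of the count files, 10 of 55401 identifiers in all. They were the secreted hormones and enzyme Adipoq, Lep, Retn and Cfd, the lipid droplet protein Plin1, the thermogenic protein Ucp1, and Fabp4, Lpl, Pparg and Car3, which other cells also express. Transcripts were read from their 3′ ends in calf muscle, liver and hypothalamus of C57BL/6 mice that were 200 d old. COX10 KO mice carried homozygous floxed alleles of Cox10, an enzyme of heme a synthesis needed to assemble cytochrome c oxidase, together with Cre expressed from the Myl1 locus, a gene of skeletal muscle fibres. CTL mice were their littermates, and which of the floxed and Cre alleles they carried is not given in the sources used here. Muscle and liver each held 6 COX10 KO and 6 CTL libraries, with 3 males and 3 females in each group as labelled, and hypothalamus held 4 COX10 KO and 4 CTL libraries, all male. In muscle, replicates 1 to 3 of each group were female and replicates 4 to 6 were male.

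Adipocytes store fat as triglyceride and release it as fatty acids and glycerol when energy is short. White adipocytes hold a lipid droplet coated by perilipin and secrete adiponectin, leptin and adipsin into the blood, while brown and beige adipocytes burn fat through uncoupling protein 1. Skeletal muscle fibres do not make these hormones. A calf muscle contains adipocytes between its bundles and is wrapped in fat that can come along with the dissected tissue, so adipocyte transcripts in a muscle library measure how much adipocyte RNA the piece held. In bulk tissue, fewer cells of a type and less RNA per cell cannot be told apart.

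Library totals were 434494 to 11404800 gene counts in muscle, 674311 to 16044634 in liver and 3526613 to 22321322 in hypothalamus. Each tissue carried its own identity transcripts: 10 skeletal muscle genes summed to between 61123 and 110535 CPM (counts scaled to a common library size) in COX10 KO muscle and between 64236 and 173830 CPM in CTL muscle, against at most 689 CPM in any liver or hypothalamus library. The 10 hepatocyte genes summed to at least 80554.5 CPM in liver. They also summed to 3155.7 to 5263.5 CPM in COX10 KO and 1240.5 to 2824.4 CPM in CTL hypothalamus, so that list was not confined to liver libraries. Sex-linked transcripts did not match the labelled sex in 2 of 12 liver libraries, and matched it in all 12 muscle and all 8 hypothalamus libraries. Cox10 read 113 ± 16 CPM in COX10 KO muscle and 109 ± 42 CPM in CTL muscle (SD, n = 6 each), and a 3′ read does not show whether the floxed exon is lost. CTL muscle replicate 2, a female, stood apart: it was the shallowest library of the series and held by far the most adipocyte RNA, so muscle results are also given without it wherever it changed a call, a direction or the size of a value by much.

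Promoters are shown for Adipoq, Cfd, Plin1 and Lep, because these 4 are among the 5 genes summed below as the measure of adipocyte RNA. Each run is the 250 bases before the transcription start in RefSeq on GRCm38.p6, read along the gene's own strand. Capitals mark matches, on either strand, to TTGCNNAA, the element bound by C/EBP factors, or to AGGTCA, the element that nuclear receptors such as PPARγ with RXR bind as a direct repeat.
Adipoq, chr16:23146286-23146535, plus strand: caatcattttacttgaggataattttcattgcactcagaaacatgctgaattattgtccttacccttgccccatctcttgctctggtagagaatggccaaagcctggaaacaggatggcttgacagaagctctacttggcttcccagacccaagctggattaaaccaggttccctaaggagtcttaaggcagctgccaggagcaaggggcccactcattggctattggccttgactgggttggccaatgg
Cfd, chr10:79890603-79890852, plus strand: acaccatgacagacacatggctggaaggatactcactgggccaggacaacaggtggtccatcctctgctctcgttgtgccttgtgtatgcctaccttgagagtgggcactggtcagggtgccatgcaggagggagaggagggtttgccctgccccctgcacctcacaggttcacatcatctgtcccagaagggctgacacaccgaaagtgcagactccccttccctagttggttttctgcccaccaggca
Plin1, chr7:79732777-79733026, minus strand: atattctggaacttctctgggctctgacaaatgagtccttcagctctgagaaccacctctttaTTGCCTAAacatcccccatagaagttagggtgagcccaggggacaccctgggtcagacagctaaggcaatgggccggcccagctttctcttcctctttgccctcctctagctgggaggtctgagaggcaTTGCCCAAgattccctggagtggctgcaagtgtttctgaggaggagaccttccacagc
Lep, chr6:29059971-29060220, plus strand: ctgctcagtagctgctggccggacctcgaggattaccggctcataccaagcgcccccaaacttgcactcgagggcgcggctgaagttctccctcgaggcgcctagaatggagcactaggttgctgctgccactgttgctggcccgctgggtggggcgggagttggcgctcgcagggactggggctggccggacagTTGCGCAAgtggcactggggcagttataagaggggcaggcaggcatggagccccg
The Lep promoter held the full palindrome TTGCGCAA, itself a case of TTGCNNAA, starting 55 bases before the start site. TTGCGCAA occurs in 54 of 32851 mouse promoters of this length (0.164%), and TTGCNNAA in 3142 of them (9.56%). The Plin1 promoter held TTGCNNAA at 187 and 58 bases before the start. Neither Adipoq nor Cfd matched TTGCNNAA, AGGTCA (14% of promoters), AGGNCA repeated with 1 base between the copies (0.338%) or TATAAA (12.4%) in this window. RefSeq promoters were matched for 7 of the 10 genes, and not for Fabp4, Lpl and Car3. Of the other matched genes, Ucp1 held AGGTCA 14 bases before its start and Retn held none of these motifs. Pparg has several starts: AGGTCA lay 28 and 9 bases before the first and the second, and TTGCNNAA lay 215 and 16 bases before the third.

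Adipocyte RNA was present in all 12 muscle libraries and differed widely between mice of the same group. The summed CPM of Adipoq, Lep, Cfd, Retn and Plin1, genes that are close to restricted to adipocytes, had a lowest, median and highest value of 75.3, 328.5 and 443 in COX10 KO muscle and of 51.2, 155.7 and 2677 in CTL muscle. The groups overlapped, and the CTL group held both the lowest and the highest library. The highest COX10 KO library was 5.88 times the lowest, against 52.3 times in CTL muscle and 11.6 times in CTL muscle without replicate 2.

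**Figure D1:**
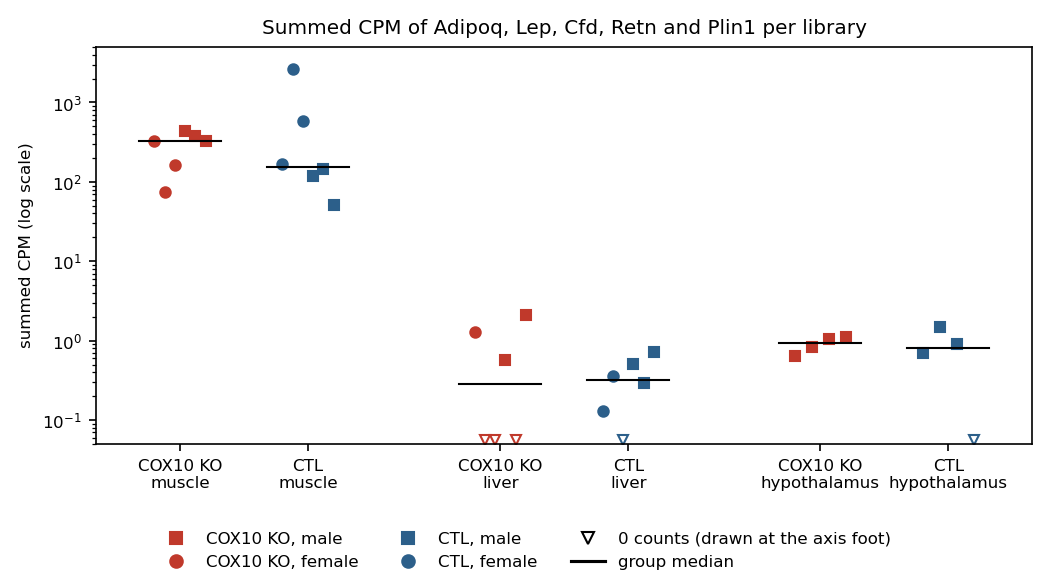
Summed CPM of Adipoq, Lep, Cfd, Retn and Plin1 in each of 32 libraries on a log axis, by tissue and genotype, with sex as labelled; lines are group medians and open triangles are libraries with 0 counts. All 12 muscle libraries lie at 51.2 CPM or more and all liver and hypothalamus libraries at 2.09 CPM or less.

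The order of the libraries differed by sex. Among males, the 3 COX10 KO libraries summed to 328, 384 and 443 CPM, against 51.2, 118 and 145 CPM in the 3 CTL libraries. These values did not overlap, but 3 libraries against 3 can separate by chance. The share of all genes that do so in males was not counted. Among females, COX10 KO libraries summed to 75.3, 161 and 329 CPM, and CTL libraries to 166, 592 and 2677 CPM. The female groups overlapped, because the highest COX10 KO female lay above the lowest CTL female.

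Liver and hypothalamus gave the background of this measure. The sum was 0 to 2.09 CPM in COX10 KO liver and 0 to 0.727 CPM in CTL liver, and 0.648 to 1.11 CPM in COX10 KO hypothalamus and 0 to 1.49 CPM in CTL hypothalamus. Every muscle library therefore lay far above every library of the other tissues.

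CTL muscle replicate 2 held 513.6 CPM of Adipoq, 8.33 times the next highest of the 12 libraries. Its excess over the next library was 13.6 times for Lep, 6.19 times for Retn, 4.70 times for Plin1, 4.47 times for Pparg, 3.89 times for Cfd and 1.43 times for Fabp4, and it ranked second for Lpl and Car3. The same library also carried the most transcripts of other tissues. Its 10 hepatocyte identity genes summed to 2346 CPM, against at most 333.9 CPM in the other 11 muscle libraries, and its 10 hypothalamus identity genes to 262 CPM, against at most 44.0 CPM. Its skeletal muscle identity genes summed to 64236 CPM, below the 111912 to 173830 CPM of the other CTL libraries. The part of these transcripts in the adipocyte values was not tested.

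Adipoq (ENSMUSG00000022878, chr16:23146536-23158028) encodes adiponectin, an abundant hormone of fat that sensitizes liver and muscle to insulin. Its lowest, median and highest values were 8.88, 31.3 and 48.7 CPM in COX10 KO muscle, and 2.18, 19.5 and 514 CPM in CTL muscle. The groups overlapped, with 2 CTL libraries above every COX10 KO library and 1 below. Adipoq averaged 29.2 ± 14.4 CPM in COX10 KO muscle, against 105 ± 201 CPM in CTL muscle (SD, n = 6 each) and 23.2 ± 23.0 CPM in CTL muscle without replicate 2 (n = 5).

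Lep (ENSMUSG00000059201, chr6:29060220-29073877) encodes leptin, the fat-derived hormone that reports energy stores to the hypothalamus. It was scarce, with 54 counts over the 6 COX10 KO muscle libraries and 63 over the 6 CTL libraries, 30 of them in CTL replicate 2. Its values were 0, 0.914 and 2.18 CPM (lowest, median, highest) in COX10 KO muscle and 0, 2.48 and 54.6 CPM in CTL muscle. In each group 1 library had no Lep count, and 3 CTL libraries lay above every COX10 KO library.

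Cfd (ENSMUSG00000061780, chr10:79890853-79892655) encodes adipsin, the complement factor D protease that adipocytes secrete. It ranged over 61.2, 259 and 374 CPM in COX10 KO muscle and over 41.9, 113 and 1876 CPM in CTL muscle. Retn (ENSMUSG00000012705, chr8:3655770-3660110) encodes resistin, a hormone that white adipocytes make in mice. It ranged over 2.10, 6.21 and 10.6 CPM in COX10 KO muscle and over 1.56, 4.50 and 89.3 CPM in CTL muscle. For both genes the COX10 KO range lay inside the CTL range.

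Plin1 (ENSMUSG00000030546, chr7:79720218-79732903) encodes perilipin 1, which coats the lipid droplet and gates its lipases. It ranged over 2.91, 14.2 and 22.0 CPM in COX10 KO muscle and over 4.35, 17.4 and 143.9 CPM in CTL muscle, so that 1 COX10 KO library lay below every CTL library and 2 CTL libraries lay above every COX10 KO library. Ucp1 (ENSMUSG00000031710, chr8:83290352-83298452) encodes the proton carrier that makes brown and beige adipocytes produce heat. It had 0 counts in all 12 muscle libraries, which allows up to 0.0749 CPM over the COX10 KO group and 0.140 CPM over the CTL group, where 3 counts are taken as the limit of a count of 0 and counting error alone is covered. Nor was Ucp1 detectable elsewhere beyond 1 count in CTL liver, 1 in COX10 KO hypothalamus and 3 in CTL hypothalamus.

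**Figure D2:**
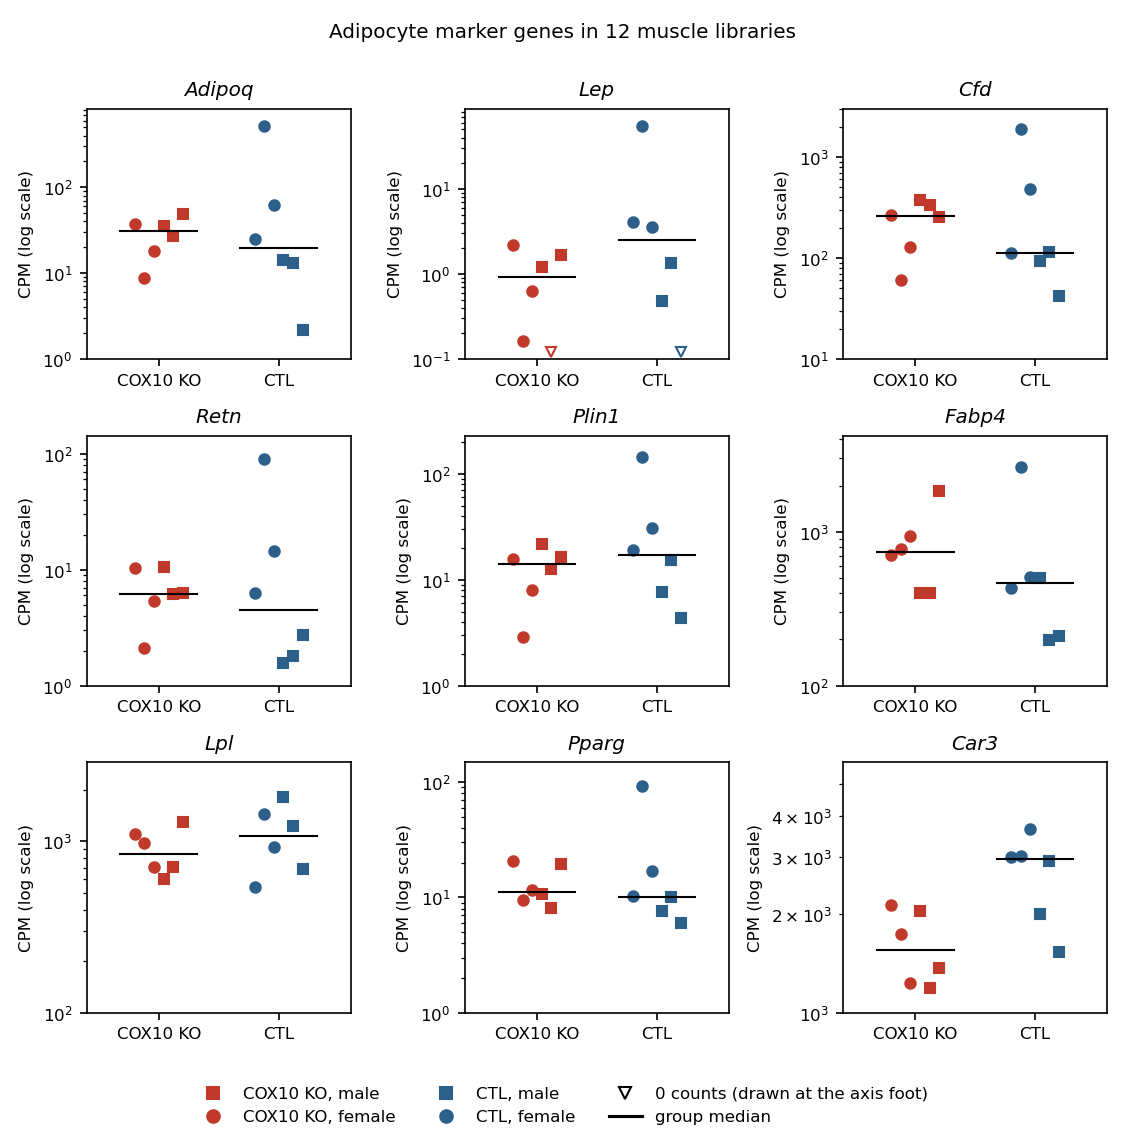
CPM of 9 adipocyte marker genes in the 12 muscle libraries on log axes, COX10 KO beside CTL; squares are males, circles females, lines group medians and open triangles libraries with 0 counts. CTL replicate 2 is the highest library in the panels of Adipoq, Lep, Cfd, Retn, Plin1, Fabp4 and Pparg, and Car3 is the panel in which 4 CTL libraries lie above every COX10 KO library.

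Fabp4 (ENSMUSG00000062515, chr3:10204088-10208576) encodes a fatty acid carrier of adipocytes that endothelial cells and macrophages also make. Its values were 400.1, 743 and 1841 CPM in COX10 KO muscle and 199, 468 and 2637 CPM in CTL muscle. Without CTL replicate 2 the highest CTL value was 509.7 CPM, and 4 of the 6 COX10 KO libraries lay above it.

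Lpl (ENSMUSG00000015568, chr8:68880491-68907448) encodes lipoprotein lipase, which frees fatty acids from circulating triglyceride and is made by muscle fibres as well as adipocytes. It ranged over 607, 848 and 1298 CPM in COX10 KO muscle and over 539, 1078 and 1809.6 CPM in CTL muscle, with overlap. Pparg (ENSMUSG00000000440, chr6:115360951-115490399) encodes PPARγ, the nuclear receptor that drives adipocyte differentiation, and an antisense gene, Gm44079, overlaps it. It ranged over 8.16, 11.2 and 20.8 CPM in COX10 KO muscle and over 5.99, 10.2 and 92.9 CPM in CTL muscle, also with overlap.

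Car3 (ENSMUSG00000027559, chr3:14863512-14872523) encodes carbonic anhydrase 3, an abundant cytosolic protein of adipocytes, slow muscle fibres and mouse liver. It had 1187.7, 1555 and 2138 CPM in COX10 KO muscle and 1529, 2946 and 3636 CPM in CTL muscle. Here 3 COX10 KO libraries lay below every CTL library and 4 CTL libraries above every COX10 KO library, although the groups still overlapped. Car3 averaged 1619.5 ± 416 CPM in COX10 KO muscle and 2678 ± 768 CPM in CTL muscle (SD, n = 6 each), and an exact permutation test of the CPM, two-sided, gave p = 0.0195 (0.234 after Benjamini-Hochberg adjustment over 24 such tests of the 10 genes in 3 tissues).

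In the fit across all genes, 1 of the 9 members tested in muscle was called, and it was lower in COX10 KO muscle. The test was edgeR's quasi-likelihood test with sex as a term, at a Benjamini-Hochberg adjusted p under 0.05, and it called 14.3% of 11636 genes, 6.9% higher and 7.43% lower. The called gene was Car3, with a log2 fold change of -0.70 (SE 0.22, adjusted p = 0.0477, edgeR). The median log2 fold change was -0.48 over the 9 members and -0.03 over all genes tested.

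The Car3 call lay close to the threshold. Over 23 alternatives the log2 fold change stayed between -0.93 and -0.44, with adjusted p between 0.0124 with DESeq2 and 0.531 in males alone, and the call was kept in 10. It was lost when COX10 KO replicate 1, 2, 3, 5 or 6 or CTL replicate 1, 2, 3 or 5 was left out, where the log2 fold change lay between -0.71 and -0.54.

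The adipocyte-restricted genes were not called, and their estimates rested on CTL replicate 2. With all 12 libraries Adipoq had a log2 fold change of -0.76 (SE 1.08), Lep -2.02 (SE 1.10), Plin1 -0.94 (SE 0.73), Retn -0.48 (SE 0.85) and Cfd -0.26 (SE 0.93). Leaving out CTL replicate 2 gave 0.52 (SE 0.57) for Adipoq, -0.58 (SE 0.77) for Lep, -0.17 (SE 0.49) for Plin1, 0.60 (SE 0.54) for Retn and 0.63 (SE 0.58) for Cfd. The direction thus turned for Adipoq, Retn and Cfd, and each estimate lay within about 2 standard errors of 0.

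Without CTL replicate 2 the test called 15.9% of 11977 genes (8.27% higher, 7.62% lower) and again 1 of 9 members, but another one. Fabp4 rose in COX10 KO muscle by a log2 fold change of 1.23 (SE 0.39, adjusted p = 0.0461, edgeR), while Car3 fell short of the threshold at -0.65 (SE 0.23, adjusted p = 0.065). With all 12 libraries Fabp4 had a log2 fold change of 0.49 (SE 0.57, adjusted p = 0.613). Over its alternatives the adjusted p of Fabp4 ran up to 0.939, which was reached without COX10 KO replicate 6, the library with the most Fabp4 of that group, where the log2 fold change was -0.07. Lpl, at -0.28 (SE 0.29), and Pparg, at -0.31 (SE 0.52), were not called with all libraries, and without CTL replicate 2 they stood at -0.09 (SE 0.30) and 0.46 (SE 0.30).

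**Figure D3:**
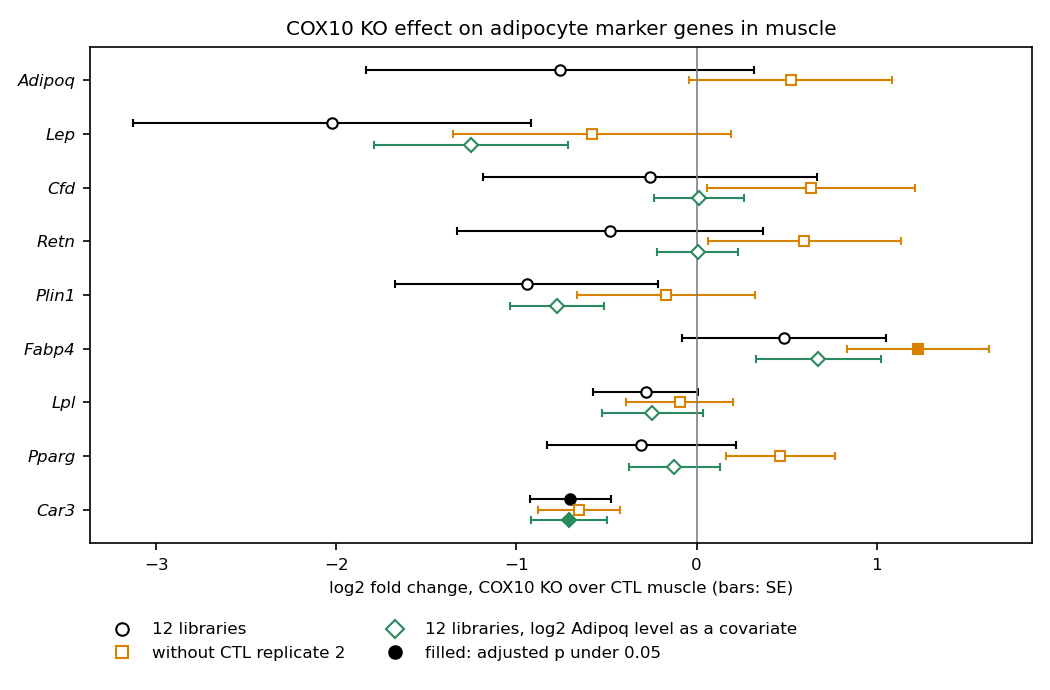
Log2 fold change of 9 adipocyte marker genes, COX10 KO over CTL muscle, with standard errors, from all 12 libraries, without CTL replicate 2, and with the log2 Adipoq level of each library as a covariate; filled symbols have an adjusted p under 0.05 (edgeR). Car3 is filled at -0.70 with all libraries and at -0.71 with the covariate, Fabp4 at 1.23 without CTL replicate 2, and Adipoq, Cfd, Retn and Pparg lie on either side of 0 depending on CTL replicate 2.

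Some markers of other cells were called in the same muscle libraries. Over all genes tested 6.9% were called higher and 7.43% lower, and without CTL replicate 2 the shares were 8.27% and 7.62%. The endothelial counts below lie near these shares. Of the 12 macrophage genes tested, 6 rose in COX10 KO muscle (7 without CTL replicate 2), among them Cd68 with a log2 fold change of 3.79. The 14 listed macrophage genes summed to 304 to 678 CPM in COX10 KO muscle and to 134 to 429.8 CPM in CTL muscle. Their highest CTL sum was 338.6 CPM without CTL replicate 2. The 15 listed endothelial genes summed to 929 to 1243 CPM in COX10 KO muscle and to 834 to 1014 CPM in CTL muscle, and 1 of 14 tested, Vwf, fell by 1.20 on the log2 scale in COX10 KO muscle, with Esam called higher once CTL replicate 2 was left out. Of 10 skeletal muscle identity genes, 5 fell (7 without CTL replicate 2), among them the fast-fibre genes Actn3, Pvalb and Tnnt3. Of 10 slow-fibre genes 0 were called, nor had any an unadjusted p under 0.05. Their summed level spread widely, from 1749.5 to 6914 CPM in COX10 KO muscle and from 867 to 21027 CPM in CTL muscle. Leaving out CTL replicate 2, the lowest CTL sum was 1720 CPM. The absence of calls thus does not show equal levels. Fabp4 is made by macrophages and endothelium and Car3 by muscle fibres, and the part of these cells in the Fabp4 and Car3 values was not tested.

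The difference between the sexes was tested directly. The COX10 KO effect in males minus that in females was, on the log2 scale, 5.00 (SE 1.22) for Adipoq, 4.98 (SE 1.70) for Lep, 4.40 (SE 1.15) for Retn, 4.38 (SE 1.03) for Cfd and 3.64 (SE 0.97) for Plin1. Pparg stood at 2.05 (SE 0.89) and Fabp4 at 2.09 (SE 0.95), while Car3 was at 0.43 (SE 0.45) and Lpl at -0.46 (SE 0.59). None of the 9 members passed edgeR's adjusted threshold, which called 0% of 12065 genes. DESeq2 called Retn, in a fit whose share of all genes called is not given here. The unadjusted p in edgeR was under 0.05 for 7 of 9. Over all genes, Fabp4, the weakest of these 7 at an unadjusted p of 0.0434 in edgeR, ranked 410 of 12065. The 7 varied together from library to library, as given below, and are not separate observations.

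Without CTL replicate 2 the differences were smaller, at 2.83 for Adipoq, 2.77 for Lep, 2.75 for Retn, 2.90 for Cfd, 2.38 for Plin1, 0.68 for Pparg and 0.75 for Fabp4, while Car3 was at 0.49 and Lpl at -0.86. No member was called in that fit, and 4 of 9 had an unadjusted p under 0.05, a level at which the share over all genes was not counted. In males, Adipoq had 27.0, 35.7 and 48.7 CPM in COX10 KO muscle and 2.18, 13.2 and 14.2 CPM in CTL muscle. In females, Adipoq had 8.88, 17.9 and 37.2 CPM in COX10 KO muscle and 24.9, 61.7 and 514 CPM in CTL muscle, with overlap. Fitted in males alone, where 2.67% of 10542 genes were called, Cfd rose in COX10 KO muscle by a log2 fold change of 1.99 (adjusted p = 0.0226, edgeR) and was the only one of 8 members tested to be called, while Adipoq stood at 1.90 (adjusted p = 0.0751). Fitted in females alone, where 2.65% of 11208 genes were called, no member was called, and Adipoq stood at -3.17 (adjusted p = 0.0902). The unadjusted p was under 0.05 for 6 of 9 there, and the share over all genes at that level was not counted. That fit included CTL replicate 2, so the count of 6 is not read as a result about the members.

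Sex as such changed no member past the threshold. Male over female log2 fold changes ran from -2.05 (SE 1.07) for Lep to 0.13 (SE 0.29) for Lpl, and Adipoq stood at -1.57 (SE 1.06). Without CTL replicate 2, Lep stood at -0.98, Adipoq at -0.43, Plin1 at -0.10 and Lpl at 0.27, and again no member was called. With all libraries the test called 0.0602% of 11636 genes and 0 of the 9 members, and 0 again by DESeq2, and no member reached an unadjusted p under 0.05.

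The adipocyte-restricted genes varied together from library to library. After removing genotype and sex, log2 levels over the 12 muscle libraries gave a Pearson r with Adipoq of 0.961 for Cfd, 0.959 for Plin1, 0.925 for Lep, 0.896 for Pparg, 0.874 for Retn and 0.715 for Fabp4, but 0.457 for Car3 and 0.380 for Lpl. With CTL replicate 2 left out the r was 0.920 for Cfd and for Plin1, 0.830 for Lep, 0.772 for Pparg, 0.711 for Retn, 0.647 for Car3, 0.390 for Fabp4 and 0.183 for Lpl. The libraries share their depth and dissection, so these values describe the 12 libraries and carry no test.

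**Figure D4:**
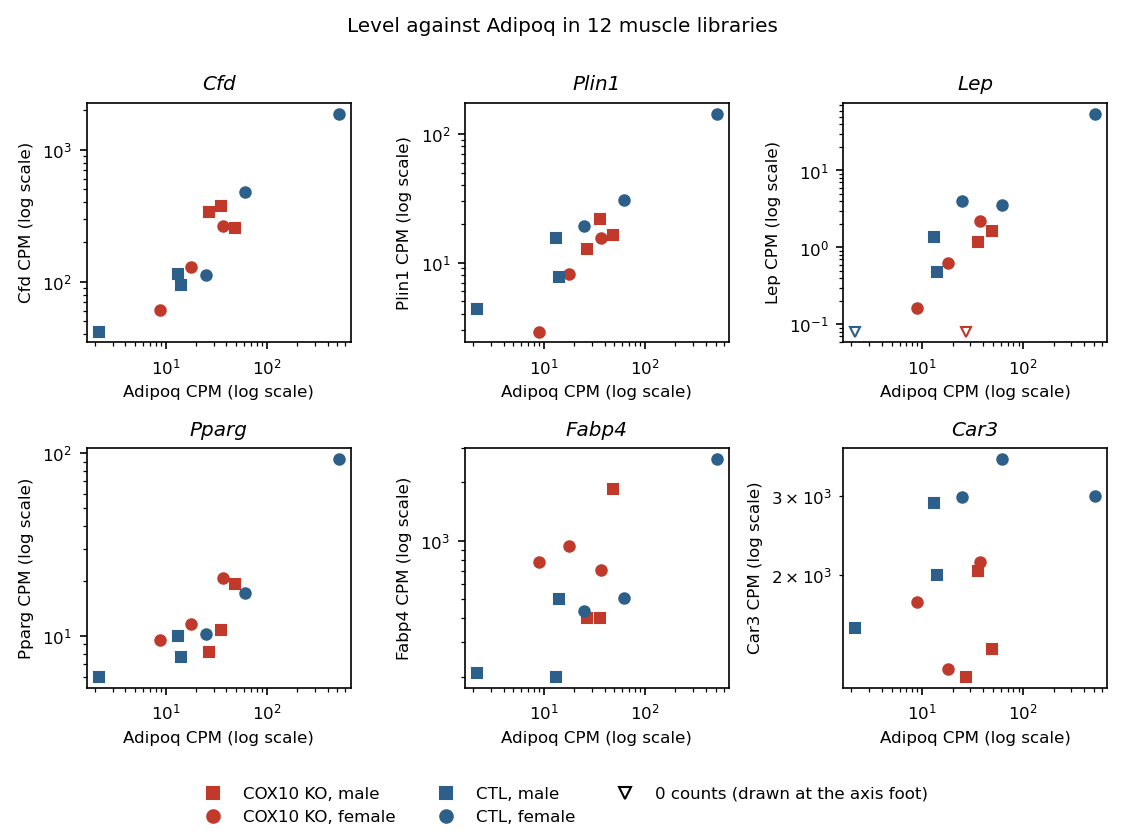
CPM of Cfd, Plin1, Lep, Pparg, Fabp4 and Car3 against CPM of Adipoq in the 12 muscle libraries, both axes on log scales; red symbols are COX10 KO, blue CTL, squares males, circles females and open triangles libraries with 0 counts. Cfd and Plin1 follow Adipoq over its whole range (r = 0.961 and 0.959 after removing genotype and sex). Car3 follows it less closely (r = 0.457 over the 12 libraries, and higher without CTL replicate 2).

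The genes outside the 10 members whose pattern was most like that of Adipoq were Car5b (r = 0.952), Igha (0.938), Cdo1 (0.934), Ywhab (0.932) and Ptgir (0.927), followed by Tcaf1, Hacd4, Smoc1, Jchain and Acp5 at 0.917 to 0.921. Igha and Jchain, the genes of the IgA heavy chain and the joining chain that plasma cells make, reached 1106 and 120 CPM in CTL replicate 2. When that library was left out, 3 of these 10 genes were again among the 10 most alike, Car5b, Igha and Ywhab. Of 24 other white adipocyte genes, 7 were among the 100 genes most like Adipoq with all libraries, and 2 without CTL replicate 2.

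Fitted as a slope, 6 of the 8 other members tested rose with Adipoq, against 0.653% of 11635 genes called in either direction. For each doubling of Adipoq, the log2 level changed by 0.98 (SE 0.14) for Lep, 0.78 (SE 0.07) for Cfd, 0.77 (SE 0.10) for Retn, 0.70 (SE 0.07) for Plin1, 0.49 (SE 0.07) for Pparg and 0.41 (SE 0.09) for Fabp4. Lpl, at 0.11 (SE 0.08), and Car3, at 0.08 (SE 0.06), were not called. Of 24 other white adipocyte genes, 10 rose with Adipoq, among them Scd1, Adrb3, Cidec and Pck1, and so did 3 of 8 hepatocyte genes, Alb, Cyp3a11 and Cyp2e1.

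These calls rested in large part on CTL replicate 2. Without it 0.0167% of 11976 genes were called, and Cfd was the only member among them, with a slope of 0.82 (SE 0.12, adjusted p = 0.0293, edgeR). The slopes themselves changed little for Plin1, at 0.78 (SE 0.14), Lep, at 1.20 (SE 0.35), and Retn, at 0.68 (SE 0.20), and were 0.34 (SE 0.11) for Pparg, 0.28 (SE 0.15) for Fabp4, 0.09 (SE 0.13) for Lpl and 0.19 (SE 0.09) for Car3. No other white adipocyte gene and no hepatocyte gene was called without it.

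With the log2 Adipoq level of each library as a covariate, the COX10 KO effect compares muscles at the same Adipoq level. That fit called 14.3% of genes (7.03% higher, 7.24% lower) and 1 of the members, Car3, at -0.71 (SE 0.21, adjusted p = 0.0357, edgeR), and without CTL replicate 2, where 8.48% of genes were called, Car3 was called at -0.82 (SE 0.23, adjusted p = 0.0395). Cfd, at 0.01 (SE 0.25), and Retn, at 0.0069 (SE 0.22), lay next to 0. Plin1 stood at -0.78 (SE 0.26, adjusted p = 0.0583) and Lep at -1.25 (SE 0.54, adjusted p = 0.133), and neither passed the threshold.

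Counts of Lep set against those of Adipoq in the same library showed the same direction for Lep. Over all libraries of a group there were 0.0384 Lep counts for each Adipoq count in COX10 KO muscle (54 of 1405) and 0.0925 in CTL muscle (63 of 681). The median over libraries was 0.0338 in COX10 KO muscle and 0.0809 in CTL muscle. For Cfd the medians were 7.15 in COX10 KO muscle and 7.23 in CTL muscle, and for Plin1 they were 0.435 in COX10 KO muscle and 0.659 in CTL muscle. Pooled over a group, Cfd stood at 6.99 in COX10 KO and 5.45 in CTL muscle, and Plin1 at 0.414 and 0.498. CTL replicate 6, with only 4 Adipoq counts, had ratios of 19.25 for Cfd and 2.0 for Plin1. These ratios are values without a test.

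Other genes of fat were read from lists. Of 28 other white adipocyte genes, 24 were tested in muscle, 1 rose in COX10 KO muscle and 0 fell. Over all genes 6.9% rose and 7.43% fell, so these counts do not exceed the general share. The one that rose was Pnpla2, the triglyceride lipase ATGL, with 308 to 935 CPM in COX10 KO muscle, 172 to 325 CPM in CTL muscle and a log2 fold change of 0.99 (SE 0.27, adjusted p = 0.023, edgeR). Pnpla2 is also made by muscle fibres. Without CTL replicate 2, where 8.27% of all genes rose, 4 of 26 rose. They were Adig (1.91), the adipogenin gene, Agpat2 (1.47) and Acaca (0.86), enzymes of lipid synthesis, and Pnpla2 (1.10).

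Of 10 brown and beige adipocyte genes tested, 1 rose and 1 fell. Over all genes 6.9% rose and 7.43% fell, and the counts in this paragraph lie near or below these shares. Kcnk3, a potassium channel gene, rose by a log2 fold change of 1.93, and Ebf2, a transcription factor of brown fat precursors, fell by 1.33. Of 17 genes of fibro-adipogenic progenitors, the cells that form adipocytes within muscle, 0 rose and 1 fell, Tcf4, by 0.54, and Lum was called higher, at 0.82, when CTL replicate 2 was left out. The median log2 fold change of these 17 genes was -0.06, against -0.03 over all genes tested.

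Among 18 PPAR and adipogenic factors, 0 rose and 5 fell in COX10 KO muscle. Over all genes 6.9% rose and 7.43% fell, and 8.27% and 7.62% without CTL replicate 2. The 5 were the retinoid receptors Rxra (fell by 0.74 on the log2 scale) and Rxrg (fell by 0.75), the partners with which PPARs bind DNA, the corepressor gene Ncor1 (fell by 0.67), the preadipocyte factor Zfp423 (fell by 0.97) and Srebf1, the regulator of lipid synthesis (fell by 1.66). The same 5 genes fell without CTL replicate 2. Of 14 PPAR target genes of muscle tested, 3 rose and 0 fell: Acot2, a mitochondrial thioesterase gene (3.87), Pdk4, the kinase that shuts pyruvate out of mitochondria (2.61), and Acadl, a dehydrogenase of fatty acid oxidation (1.62). Once CTL replicate 2 was left out, 5 rose, with Acot1 and Angptl4 added.

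The receptors of the fat hormones were tested beside their ligands. The muscle fit called 6.9% of all genes higher and 7.43% lower, and the liver fit called 0.0927% in either direction. Of 5 tested in muscle, 2 fell in COX10 KO muscle, the adiponectin receptor gene Adipor1 by 0.56 and Cdh13, which encodes T-cadherin and binds adiponectin, by 0.87 on the log2 scale. C3ar1, a complement receptor gene on the same list, was called higher, at 1.80, when CTL replicate 2 was left out. In liver the leptin receptor gene Lepr rose in COX10 KO mice by a log2 fold change of 3.94 (SE 0.65, adjusted p = 0.0423, edgeR), and it was the only gene of all these lists to be called in liver or hypothalamus.

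The close relatives of the members gave few calls in muscle, where 14.3% of all genes were called (15.9% without CTL replicate 2). None passed the test among 8 partners of lipoprotein lipase, 4 fatty acid binding protein genes, 5 perilipin genes, 4 uncoupling protein genes, 7 genes of the alternative complement pathway and 2 resistin family genes, and Car3 was the only one of 8 carbonic anhydrase genes to be called. At an unadjusted p under 0.05 there were 2 partners of lipoprotein lipase, 1 gene each of the fatty acid binding protein, perilipin and uncoupling protein families, 4 carbonic anhydrase genes, Car3 among them, and 0 genes of the alternative complement pathway or the resistin family. The share of all genes at that level was not counted. In the fit without CTL replicate 2, Angptl4, an inhibitor of lipoprotein lipase, and the perilipin gene Plin3 were called higher, with log2 fold changes of 2.51 and 0.77, besides Fabp4, and of 10 carbonic anhydrase genes tested Car6 was called higher and Car11 lower.

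In liver none of the 4 members tested was called, against 0.0927% of 9707 genes. Car3 had 87.4, 1167.5 and 2701 CPM (lowest, median, highest) in COX10 KO liver and 1475, 2774 and 4101 CPM in CTL liver. With 4 COX10 KO libraries below every CTL library and 4 CTL libraries above every COX10 KO library, the exact permutation test gave p = 0.0152 (0.234 after adjustment over the 24 tests), and edgeR gave a log2 fold change of -1.23 (SE 0.55, p = 0.0431, adjusted p = 0.947). No other of the 4 reached an unadjusted p under 0.05 in edgeR, and by DESeq2 0 were called. COX10 KO liver replicate 6, with 689 CPM of skeletal muscle identity genes, against at most 136 CPM in the other 11 liver libraries, was also the one with 87.4 CPM of Car3, and the part of that muscle RNA in its values was not tested. Fabp4 was at 0.20 (SE 0.50), Lpl at -0.11 (SE 0.33) and Pparg at -0.16 (SE 0.37).

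In hypothalamus none of the 2 members tested was called, and the test called 0% of 13504 genes. Lpl had 13.4, 22.9, 24.8 and 23.1 CPM in the COX10 KO libraries, against 14.2, 11.9, 12.9 and 16.7 CPM in the CTL libraries. 3 of 4 COX10 KO libraries lay above every CTL library, the exact permutation test gave p = 0.0857, where 0.0286 is the smallest value that 4 against 4 allows, and edgeR gave a log2 fold change of 0.60 (SE 0.23, p = 0.0239, adjusted p = 1). The unadjusted p was under 0.05 for Lpl alone of the 2, by DESeq2 0 were called, and Pparg stood at 0.10 (SE 0.24).

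**Figure D5:**
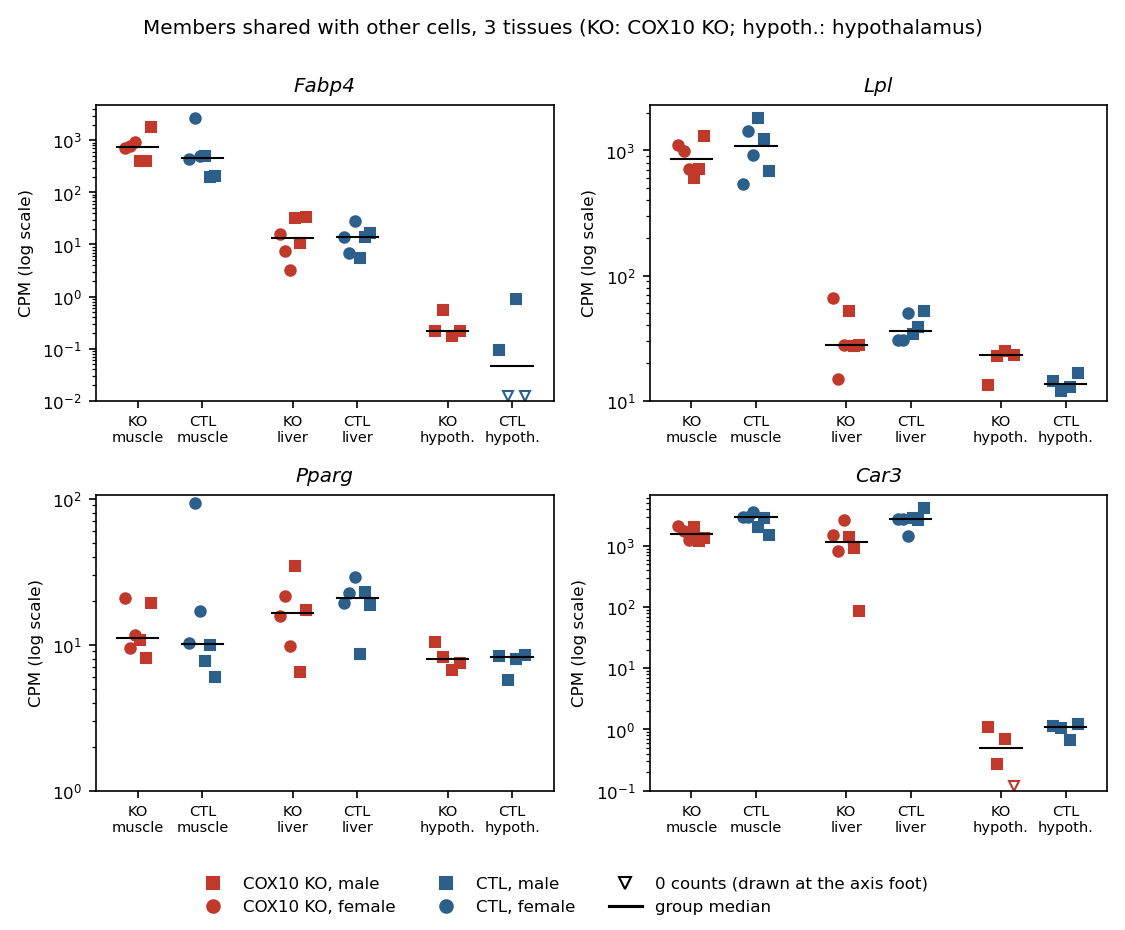
CPM of Fabp4, Lpl, Pparg and Car3 in muscle, liver and hypothalamus on log axes, COX10 KO (KO) left of CTL in each tissue; squares are libraries labelled male, circles female, lines group medians and open triangles libraries with 0 counts. Car3 has a lower median in COX10 KO than in CTL in muscle (1555 against 2946 CPM) and in liver (1167.5 against 2774 CPM), and Pparg was counted in all 32 libraries.

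Whether the COX10 KO effect differed between tissues was tested for the genes measured in both. Muscle minus liver gave 0.57 (SE 0.63, adjusted p = 0.682, edgeR) for Car3, -0.14 (SE 0.84) for Fabp4, -0.17 (SE 0.48) for Lpl and -0.34 (SE 0.71) for Pparg. Muscle minus hypothalamus gave -0.85 (SE 0.42, adjusted p = 0.319) for Lpl and -0.36 (SE 0.68) for Pparg. Car3 stood at 0.25 (SE 0.57) in that fit, but it was too scarce to be tested in hypothalamus alone. It had 10 counts over the 4 COX10 KO and 37 over the 4 CTL hypothalamus libraries, so its value there compares no measured hypothalamus effect. No member was called in either test, where 2.18% of 11373 and 1.94% of 14618 genes were, and neither an unadjusted p under 0.05 nor a DESeq2 call (0 in both) was found for any member. A difference of the size seen for Car3 in muscle could not be resolved between tissues with these standard errors.

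Most members had a higher level in CTL muscle than in CTL liver, whether restricted to adipocytes or shared with other cells. Adipoq had 681 counts in CTL muscle and 0 in CTL liver, which makes it at least 322.5-fold higher in muscle (at least 192.9-fold without replicate 2) when 3 counts over the group are taken as the limit. On the same basis Plin1 was at least 161-fold, Retn at least 62.0-fold and Lep at least 29.8-fold higher in CTL muscle, and without replicate 2 the bounds were 126-fold for Plin1, 39.6-fold for Retn and 15.9-fold for Lep. Cfd, with 3710 counts in CTL muscle and 8 in CTL liver, was 659-fold higher (95% counting interval 334 to 1527). For Cfd without replicate 2 the value was 486-fold (246 to 1126.5). These intervals cover counting error in pooled counts, not the spread between mice. Fabp4 and Lpl were each 31.6-fold higher by pooled counts, with log2 fold changes of 5.57 (SE 0.71) and 4.72 (SE 0.40) in edgeR. Pparg, at -0.19 (SE 0.51), and Car3, at -0.20 (SE 0.44), were not called. The other 6 of 8 members tested were higher in CTL muscle, where 28.2% of genes were called higher. Adipoq, Cfd, Retn and Plin1 were not tested in liver alone and passed the filter of this fit through muscle. Their calls follow from that filter, so the count of 6 is not a separate result. Without CTL muscle replicate 2, Pparg was called lower in CTL muscle than in CTL liver, at -1.03 (adjusted p = 0.0177, edgeR).

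Against CTL hypothalamus all 9 members tested were higher in CTL muscle, where 26.8% of genes were called higher. Only Lpl and Pparg were also tested in hypothalamus alone. The others passed the filter of this fit through muscle, so their calls follow from it and the count of 9 is not a separate result. Adipoq was at least 374-fold, Lep at least 34.6-fold and Cfd at least 2039-fold higher, each with 0 counts in CTL hypothalamus, and without CTL muscle replicate 2 these bounds were 224-fold for Adipoq, 18.5-fold for Lep and 1503-fold for Cfd. Car3 had a log2 fold change of 11.81 (SE 0.49), Lpl of 7.10 (SE 0.42), Retn of 4.28 (SE 1.07) and Pparg of 1.40 (SE 0.56, adjusted p = 0.0308, edgeR). Retn was the adipocyte hormone most often seen outside muscle, with 15 counts over 4 COX10 KO and 19 counts over 4 CTL hypothalamus libraries, while Lep and Cfd had 0 counts there in all 8.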

How the data were processed

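Frozen calf muscle, liver and hypothalamus were extracted and 3′ mRNA libraries (QuantSeq FWD) were made from total RNA. Per the submitters' processing notes, reads were processed with STAR 2.5.0a and HTSeq 0.6.1 on GRCm38.p6, and the authors deposited whole-number counts per Ensembl gene, not normalized. The strand setting of the counting is not given in the sources used here. Counts of 3′ reads were mainly compared between libraries. Sums over genes and ratios to Adipoq combine counts of different genes, and their values were compared between libraries and groups. The 10 members and all gene lists were chosen with earlier results of these data known. All 10 members are named, with up to 4 genes of each list by smallest p in muscle, the list genes called in liver or hypothalamus, and the 10 genes most like Adipoq, leaving out predicted and RIKEN symbols. Other list genes were named after their values were seen.

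CPM used library sizes scaled by TMM within a tissue. Tests were edgeR 4.0.16 quasi-likelihood fits in R 4.3.3 (TMM, filterByExpr, sex as labelled as a term in muscle and liver), two-sided, with Benjamini-Hochberg adjustment over all genes tested at 0.05. Each tissue was fitted alone, and differences between tissues were tested in 1 fit of both. DESeq2 1.42.0, other scaling, no filter, a stricter filter, a replicate block and leaving out each library were alternatives. The fits with Adipoq as a covariate and CTL replicate 2 left out were added after seeing the data. The r with Adipoq took log2 CPM at a prior count of 2, and the covariate and slope fits, with genotype and sex as terms, used log2 of CPM plus 0.5. Exact permutation tests used scipy 1.17.1 (the smallest p is 0.00216 for 6 against 6 and 0.0286 for 4 against 4). The fits were checked on simulated counts with known changes. Nothing in the labels says whether replicate numbers mark shared litters or days, and p-values measure the spread between these libraries. Deviations of same-numbered hypothalamus libraries correlated at 0.805, 0.204, 0.395 and 0.308 for replicates 1 to 4. For replicate 4 a library of another number gave a higher value, 0.469. Same-number values ran from -0.171 to 0.231 in muscle and from -0.525 to 0.491 in liver. The reported tests did not pair libraries, and the replicate block was an alternative. Whether equal numbers mark paired samples was not tested. Totals per library, 434494 to 22321322 counts, limit the precision for scarce genes.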

Additional observations from a re-analysis of the deposited data

Results flagged for a closer look

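Dixon's ratio was applied to 45 groups of 4 to 6 libraries. Its limits flag about 1 in 20 groups of independent, normally distributed values. The genes varied together and some groups held few counts, so the number flagged cannot be set against that rate. In 12 groups a library lay far from the others. In 8 of these it was CTL muscle replicate 2, the highest of its group for Adipoq (513.6 CPM), Lep (54.6 CPM), Plin1 (143.9 CPM), Cfd (1876 CPM), Retn (89.3 CPM), Fabp4 (2637 CPM) and Pparg (92.9 CPM), and for the summed level of Adipoq, Lep, Cfd, Retn and Plin1 (2677 CPM). The other 4 were in hypothalamus, 3 of them at very low counts. Retn was lowest in CTL replicate 4, at 0 CPM, Fabp4 was highest in COX10 KO replicate 2, at 0.553 CPM, and in CTL replicate 3, at 0.907 CPM, and Lpl was lowest in COX10 KO replicate 1, at 13.4 CPM.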

How the results depend on the processing

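Of 830 alternative values of 48 single-gene results, 754 kept their direction and their side of the threshold, 13 lost a call, 15 gained one and 48 changed sign. In muscle 1 member was called, against 2 with no expression filter (Lep at -1.93 and Plin1 at -0.87, with Car3 not called at -0.64), 0 with the replicate block (Car3 at -0.71), 0 in females alone, and 0 to 1 when a library was left out. The replicate block changed no call in liver or hypothalamus. Of the differences between the sexes, 0 members were called, against 1 with DESeq2 (Retn, 4.56) and 7 with no expression filter, and between male and female muscle 0, against 3 with no filter (Adipoq at -1.54, Retn at -1.43, Lep at -2.03). The shares of all genes called in the DESeq2 and unfiltered fits are not given here. The member counts of those fits therefore cannot be read as results about the members. Sign changed in muscle, from the values above, with the replicate block for Adipoq (0.12), Retn (0.053) and Cfd (0.53), and in males alone for Adipoq (1.90), Plin1 (0.96), Retn (2.04), Cfd (1.99) and Pparg (0.76). It changed at equal depth without CTL replicate 2 for Adipoq (0.12), Plin1 (0.043), Retn (0.45), Cfd (0.70) and Pparg (0.56), and in females alone for Fabp4 (-0.58). With the Adipoq covariate it changed for Retn (0.0069) and Cfd (0.014), and without CTL replicate 2 as well for Retn (0.12) and Pparg (0.15). In liver it changed in males alone for Pparg (0.20), in females alone for Lpl (0.014) and Fabp4 (-0.71), and without the 2 libraries of mismatched sex for Fabp4 (-0.014). Muscle minus liver changed sign in males alone for Fabp4 (0.50) and Pparg (0.57), and muscle minus hypothalamus for Pparg (0.73). With libraries left out in turn, sign changed within these ranges: in muscle Adipoq -1.43 to 0.52, Retn -0.97 to 0.60, Cfd -0.87 to 0.63, Pparg -0.56 to 0.46 and Fabp4 -0.069 to 1.23, in liver Pparg -0.51 to 0.0101, Lpl -0.49 to 0.047 and Fabp4 -0.026 to 0.53, and in hypothalamus Pparg -0.044 to 0.18. For muscle minus liver they were Fabp4 -0.64 to 0.87, Lpl -0.34 to 0.0102 and Pparg -0.56 to 0.56, for muscle minus hypothalamus Pparg -0.66 to 0.40, for CTL muscle over CTL liver Pparg -1.04 to 0.017, and for male over female muscle Lpl -0.0635 to 0.27. The cause of these changes was not tested. Lep, with 54 counts in COX10 KO and 63 in CTL muscle, and every adipocyte-restricted gene in liver and hypothalamus are limited by depth.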
